A study of Rattus norvegicus with 9 samples.

Results

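The cytosolic ribosome is built from ribosomal RNA and a fixed set of ribosomal proteins, each present once per subunit except for the stalk proteins of the large subunit. The genes of these proteins were followed in the rat pubococcygeus, together with the rows named as their paralogues. Members were taken by symbol: Rpl or Rps with a number and optional letter, plus the stalk genes Rplp0, Rplp1 and Rplp2 and the laminin receptor gene Rpsa, without the Rps6k kinases. A symbol ending in l, or in l and a number, was counted as a paralogue, and every other one as a core gene. The rule found 172 genes by symbol among 25173 in the count table, 62 of them core (24 of the small and 38 of the large subunit) and 110 paralogues. They fill 224 of the 30518 rows, because 52 further rows repeat a member's symbol. Of those, 37 carry the Ensembl ID of the leading row, the one with the highest mean count, and average at most 1.86 CPM (counts scaled to a common library size with TMM factors). The other 15 lie at another locus, the highest being a second Rpl7a row on chromosome 18 at a mean of 35.9 CPM. Each symbol was therefore followed by its leading row. All 62 core genes and 56 of the 110 paralogues passed the filter on low counts. The 54 that did not are rows with few or no counts, 24 of them at 0 in every library.

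The muscle is a striated muscle of the pelvic floor. The 9 RNA-seq libraries, 3 per group, came from female Sprague-Dawley rats in a study that randomised 24 rats to 3 groups of 8. Blank rats had neither surgery nor treatment. SUI rats (a model of stress urinary incontinence, with library names that call them sham) had bilateral ovariectomy and vaginal distension by an 8 Fr balloon catheter holding 3 mL of saline under a 120 g weight for 4 h, and nothing further. Stimulated rats had the same modelling, followed after 1 week by transvaginal electrical stimulation of the pelvic floor (PFES). Pulses of 200 µs at 50 Hz and 20 mA were given in daily sessions of 30 min, 5 days per week, for 2 weeks. Ovariectomy and distension are thus common to both operated groups, and no group had the operation without distension or a sham stimulation. Ages are not given in the sources used here.

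Ribosomal protein genes are among the most evenly expressed genes of a cell, since their products are used in equal numbers. Their mRNAs carry a 5′ terminal oligopyrimidine (TOP) tract, a C at the start followed by further C and T bases, through which mTORC1 and the repressor Larp1 set how strongly they are translated. A change in translation through this tract is not visible in mRNA levels. Most mammalian ribosomal protein genes also have processed copies elsewhere in the genome, many of them silent, and a few true paralogues whose proteins can take the parent's place in the ribosome. In striated muscle the best known of these is Rpl3l, whose protein can replace that of Rpl3.

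The starts of 8 members are shown because they carry the TOP tract or lack it, and because the comparisons below turn on them. Each window is 60 bases of RefSeq sequence on the rat assembly GRCr8, read 5′ to 3′ on the gene's strand, with 40 bases before and 20 from the annotated start onward, and capitals mark the unbroken run of C and T around the start, where the start base is C and at least 4 pyrimidines follow it.
Rplp0: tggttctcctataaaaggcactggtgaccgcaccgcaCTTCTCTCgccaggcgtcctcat
Rps14: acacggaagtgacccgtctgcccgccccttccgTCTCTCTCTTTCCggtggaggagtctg
Rpl10a: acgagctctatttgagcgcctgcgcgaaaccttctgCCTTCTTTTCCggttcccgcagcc
Rps27: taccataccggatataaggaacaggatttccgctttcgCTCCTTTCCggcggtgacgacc
Rps27l: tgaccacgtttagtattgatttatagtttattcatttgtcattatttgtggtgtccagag
Rpl3: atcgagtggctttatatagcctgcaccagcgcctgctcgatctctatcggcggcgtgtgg
Rpl3l: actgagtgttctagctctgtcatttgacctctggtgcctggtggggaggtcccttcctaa
Rpl30l2: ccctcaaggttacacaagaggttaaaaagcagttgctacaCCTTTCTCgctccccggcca
The windows lie on GRCr8 at chr12:46718371-46718430 (minus strand) for Rplp0, chr18:56498220-56498279 (plus) for Rps14, chr20:6390493-6390552 (plus) for Rpl10a, chr2:177964587-177964646 (minus) for Rps27, chr8:76443618-76443677 (plus) for Rps27l, chr7:113507971-113508030 (minus) for Rpl3, chr10:14258406-14258465 (plus) for Rpl3l and chr10:37332841-37332900 (minus) for Rpl30l2. The run is 8 bases long in Rplp0, 13 in Rps14, 11 in Rpl10a, 9 in Rps27 and 8 in Rpl30l2. In all of these but Rpl30l2 it begins before the annotated start, so its length is not that of the tract in the annotated mRNA. Rpl3l and Rps27l hold no such run at their annotated start, and neither does Rpl3 at the start given in this table.

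RefSeq windows of 250 bases before to 50 after the start were matched by symbol for 52 core genes and 76 paralogues. A C followed by at least 4 pyrimidines stood exactly at the start in 21 of 52 core genes (40.4%), in 3.95% of paralogues and in 2.63% of all 27457 promoters. Beginning within 10 bases of the start, such a run was found in 76.9% of core genes, 40.8% of paralogues and 28.8% of all promoters. The ETS factor motif CCGGAAG, searched on both strands, was in 34.6% of core and 9.22% of all windows, and the Sp1 motif GGGCGG in 59.6% and 34.9%. Among paralogues those shares were 7.89% and 6.58%. The YY1 motif AAGATGGC was found in 5.77% of core windows, 15.8% of paralogue windows and 3.44% of all, and TATAAA in 11.5%, 14.5% and 14.3%. None of the 4 motifs contains another. A match in these letters is a description of the window and not a bound site.

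Levels per length, as the authors' FPKM (fragments per kilobase of transcript and library size) averaged over the 9 libraries, separated the core from most paralogues. Core genes had a median of 129 FPKM and ran from 0.271 to 402. The highest were Rplp0 (402 FPKM), the base of the stalk on which elongation factors act, then Rps2 at 338, Rpl4 at 311, Rpl19 at 295 and Rpl24 at 277. Paralogues had a median of 0.198 FPKM. Of the 91 paralogues whose locus spans under 1000 bases, 6 exceeded 10 FPKM and 0 exceeded 100, whereas 10 of the 19 with a longer locus exceeded 10 and 6 exceeded 100. Only 1 core gene, Rpl36, has a locus that short.

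**Figure D1:**
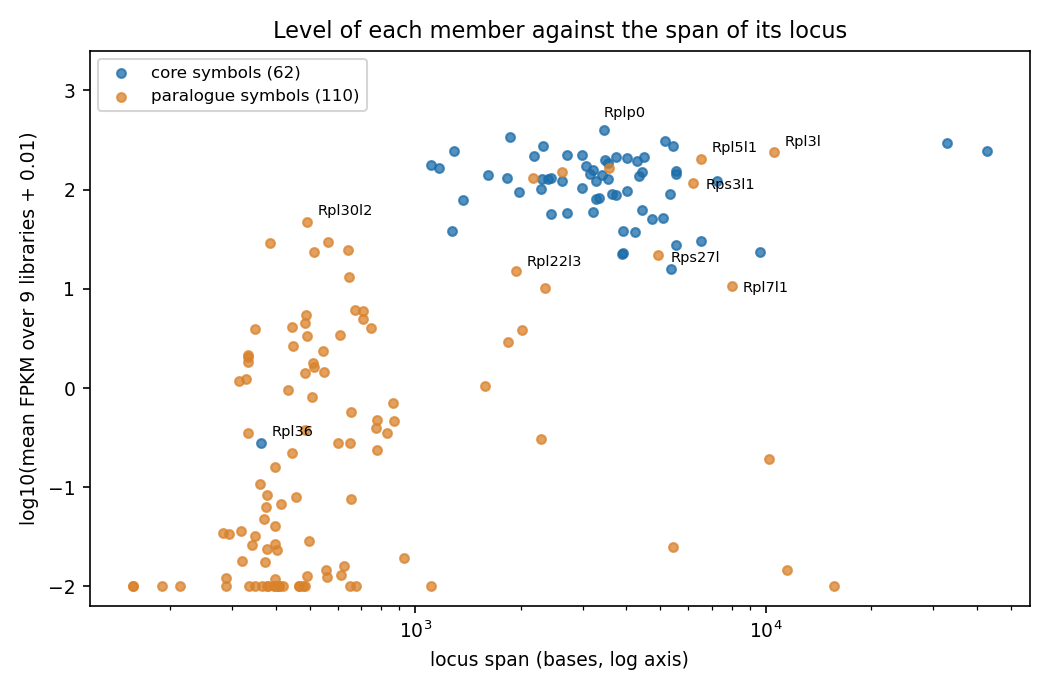
Mean FPKM of each of the 172 members over the 9 libraries (vertical axis, log10 after adding 0.01) against the span of its locus in bases (horizontal axis, log scale), with core genes in blue and paralogues in orange. Core genes form a cloud around 129 FPKM at spans over 1000 bases, most short paralogues lie near 0, and Rpl3l and Rpl5l1 lie among the core genes.

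Several names in the deposited table do not match the locus they stand on, which bears on who counts as core. The 10 nearest named genes on each side of a row were compared with the neighbours of the same symbol in RefSeq. By this check 59 of 62 core rows lie among their own RefSeq neighbours, and 88 of 110 paralogue rows do. In 5 cases a row named as a paralogue lies among the neighbours of the parent, with 19 or 20 of 20 neighbours shared. Examples are Rpl5l1 at Rpl5, Rpl32l5 at Rpl32, Rps3l1 at Rps3 and Rps12l4 at Rps12. These 5 rows have core-like levels, from 117 FPKM for Rps3l1 to 205 for Rpl5l1. In the other direction, the row named Rpl36 is a locus of 364 bases on chromosome 6 that RefSeq calls Rpl36l6, with 0.0443 to 0.196 CPM, and the row named Rplp1 is on chromosome 17 among the neighbours of Rpl35-ps1. Rpl29 is the third core row off its RefSeq neighbourhood, with 11 of 20 neighbours shared. Of 77 core symbols in RefSeq, 15 have no row of that name, among them Rpl5, Rpl7, Rpl8, Rpl32, Rpl41, Rps3 and Rps12. Of the genes set for description, Rpl5, Rpl41, Rpl22l1, Rpl7, Rpl36al, Rpl39l and Rpl26l1 likewise have no row under that name and are not analysed here under it.

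Between libraries, the core genes deviated together in most cases, with 1 library far from the rest. The mean deviation of the 62 core genes from their own 9-library means, in log2 CPM, was -0.70, -0.08 and -0.03 in blank replicates 1 to 3, -0.12, 0.28 and 0.20 in the SUI libraries and 0.12, 0.27 and 0.06 in the stimulated ones. Blank replicate 1 was the lowest. SUI replicate 1 was below the other SUI libraries and below blank replicates 2 and 3, and within the blank range only through blank replicate 1. The scatter of the 62 genes around that mean was an SD of 0.72 in blank replicate 1 and 0.12 to 0.26 in the other 8 libraries, against 0.50 to 1.08 over all genes tested. Member rows took 0.586%, 1.08% and 1.08% of all counts in the blank libraries, 1.28%, 1.34% and 1.19% in SUI and 1.04%, 1.35% and 1.11% in stimulated libraries. On that raw share, the SUI libraries did not overlap the blank ones, while stimulated replicate 1 lay between blank replicates 1 and 2.

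**Figure D2:**
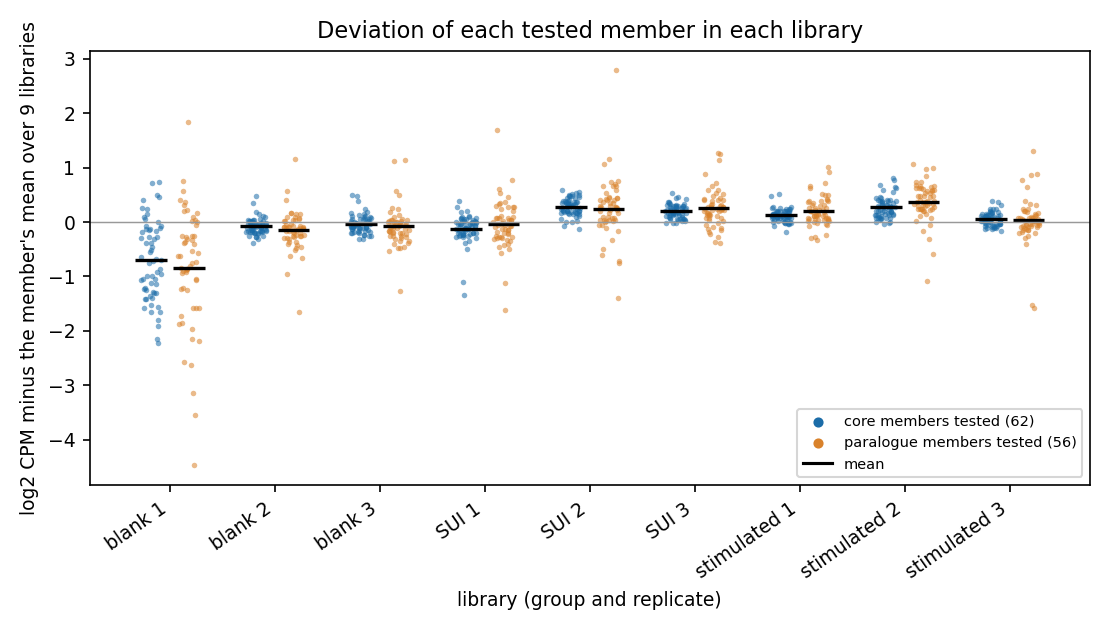
Deviation of every tested member from its own mean over the 9 libraries, in log2 CPM (vertical axis), by library (horizontal axis), with the 62 core genes in blue, the 56 paralogues in orange and the mean of each set as a black bar. Blank replicate 1 stands lowest, with a core mean of -0.70 and a wide spread, and SUI replicates 2 and 3 and stimulated replicate 2 stand highest.

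Blank replicate 1 also differed in other ways. It is the shallowest library, with 50833480 counts against up to 147650284 elsewhere, and 32.9% of its counts fell on genes of the mitochondrial genome, a share that was 13.4% to 17.7% in the other 8. Compared with the mean of the other blank libraries, 44 of 62 core genes were lower in it. Of those, 25 were lower by more than 1 on the log2 scale, and the median difference of the 62 was -0.66. Over the 15926 tested genes with a length estimate, 8740 were lower, 2967 of them by more than 1, with a median of -0.12. Between blank replicates 2 and 3 the median size of the difference was 0.05 in the core genes and 0.22 over the 15926. In that library the core genes spread in both directions: Rps27a, whose product is made as a fusion with ubiquitin, differed by -2.43, Rps14 by -2.35, Rps21 by -2.04 and Rplp0 by -1.73, while Rps6, the substrate of the S6 kinases, differed by 1.00, Rpl21 by 0.91, Rpl23 by 0.78, Rps7 by 0.67 and Rpl26 by 0.58. These 9 were chosen among the extremes after their values were seen. In CPM, Rps14 had 18.7 in blank replicate 1 and 94.1 and 97.0 in the other blanks, whereas Rps6 had 572 against 284 and 287. Across the 62 core genes the difference had a Pearson r of 0.19 and a Spearman rho of 0.19 with log2 gene length. Over the 15926 genes these were 0.17 and 0.20, both given as a description over genes that share the same libraries. The median difference was -0.69 in the 21 core genes with the pyrimidine run at the start and -0.64 in the 31 without it. By the ETS motif it was -0.35 in the 18 genes with a match (11 lower) and -0.80 in the 34 without (26 lower), values that were not tested. The part of the mitochondrial share and of depth in these values was not tested, and each comparison with blank is therefore given with and without this library.

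In SUI against blank, which asks what ovariectomy and distension did to the muscle, core genes stood mostly higher in SUI, but none passed the test. Of 62 core genes, 54 (87.1%) had a log2 fold change above 0, against 50.8% of the 16256 genes tested, and their median was 0.40 against 0.01 for all genes. By subunit, 22 of 24 small and 32 of 38 large subunit genes were above 0, with medians of 0.50 and 0.32. In 16 core genes (25.8%) every SUI library was above every blank library, against 7.34% of all genes, and in 0 was every SUI library below, against 7.77%. edgeR's quasi-likelihood test with Benjamini-Hochberg adjustment called 0 members, and 0 of all genes (0.0%), at 0.05. At an unadjusted p under 0.05 it had 1 of 62 core genes, higher in SUI, and 7 of 56 paralogues, all higher (12.5%). Of all genes, 2.84% were higher at that level. Paralogues that passed the filter only through one group had to differ, so the paralogue count is a description. How reads were shared between copies and their parents was not tested. In bulk tissue, a change in RNA per cell and a change in the mix of cells cannot be told apart.

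The core gene with the smallest p was Rpl10a, of the large subunit. Its CPM was 69.9, 111 and 114 in blank, 132, 163 and 147 in SUI and 144, 153 and 137 in stimulated libraries. Every SUI and every stimulated library was above every blank one, and the log2 fold change was 0.58 ± 0.22 (SE) for SUI over blank with an edgeR adjusted p of 0.55, and 0.56 ± 0.22 for stimulated over blank with an adjusted p of 0.90. Next by p were Rpl13 (log2 fold change 0.59 ± 0.27), Rps9 of the small subunit (0.67 ± 0.31), Rpl7a (0.48 ± 0.23) and Rpl34 (0.43 ± 0.21), all with an edgeR adjusted p of 0.61. In Rps9, Rpl7a and Rpl34 the SUI and blank groups did not overlap, and in Rpl13 SUI replicate 1 (151 CPM) lay within the blank range of 81.1 to 152.

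The highest core fold change was that of Rpl10, a late-joining protein of the large subunit, and the lowest that of Rpl30. Rpl10 had 81.8, 251 and 277 CPM in blank and 335, 329 and 342 in SUI, a log2 fold change of 0.72 ± 0.37 with an edgeR adjusted p of 0.61. It was 275, 281 and 283 in stimulated libraries, all below the SUI libraries. Rpl30 had a log2 fold change of -0.56 ± 0.41 and is taken up with its copy Rpl30l2.

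The stalk genes illustrate how much rests on blank replicate 1. Rplp0 had 178, 569 and 618 CPM in blank, 551, 809 and 719 in SUI and 662, 659 and 637 in stimulated libraries. Rplp2, a stalk tip protein, had 33.3, 65.2 and 68.9, then 71.5, 79.3 and 79.2, then 72.7, 72.0 and 69.5. In both genes the first blank value was far below the others. All stimulated values of both genes were above all blank ones, though for Rplp2 by less than 1 CPM, and SUI replicate 1 overlapped the blanks in Rplp0. The row named Rplp1, off its RefSeq neighbourhood as described above, did not separate in this way. Its deviations from its own mean over all libraries, in log2 CPM, were -1.07, 0.04 and 0.38 in blank. They were -0.39, 0.34 and 0.08 in SUI and 0.27, 0.32 and 0.03 in stimulated libraries. Its first blank value was again the lowest, but its last was above every SUI and stimulated value.

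Without blank replicate 1, the excess in SUI was smaller and still carried by most core genes, but not by all SUI libraries. The core mean deviation given above was -0.12 in SUI replicate 1, below the -0.08 and -0.03 of blank replicates 2 and 3. The core median went from 0.40 to 0.22 (all genes 0.03), with 57 of 62 (91.9%) above 0 against 53.8% of all genes. In 22 core genes (35.5%) all SUI libraries were above both remaining blanks, against 11.6% of all genes, and in 1 all were below, against 12.8%. The 5 core genes below 0 in this fit were Rpl30, Rplp1, Rpl36, Rpl38 and Rps27a. Rps6 went from below 0 to above it: with 308, 406 and 342 CPM in SUI, it was above blank replicates 2 and 3 in every SUI library and below blank replicate 1 in every one. edgeR again called 0 members, with 4 core genes (of 62) at an unadjusted p under 0.05, all higher, against 2.66% of all genes. Removing a trend with gene length instead left a median of 0.33 (all genes 0.05) with 50 of 62 above 0. Both steps together left 0.30 with 59 of 62, but the median of all genes then rose to 0.11. With that trend removed, the core mean deviation was -0.03 in SUI replicate 1, against -0.14 and -0.07 in blank replicates 2 and 3.

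**Figure D3:**
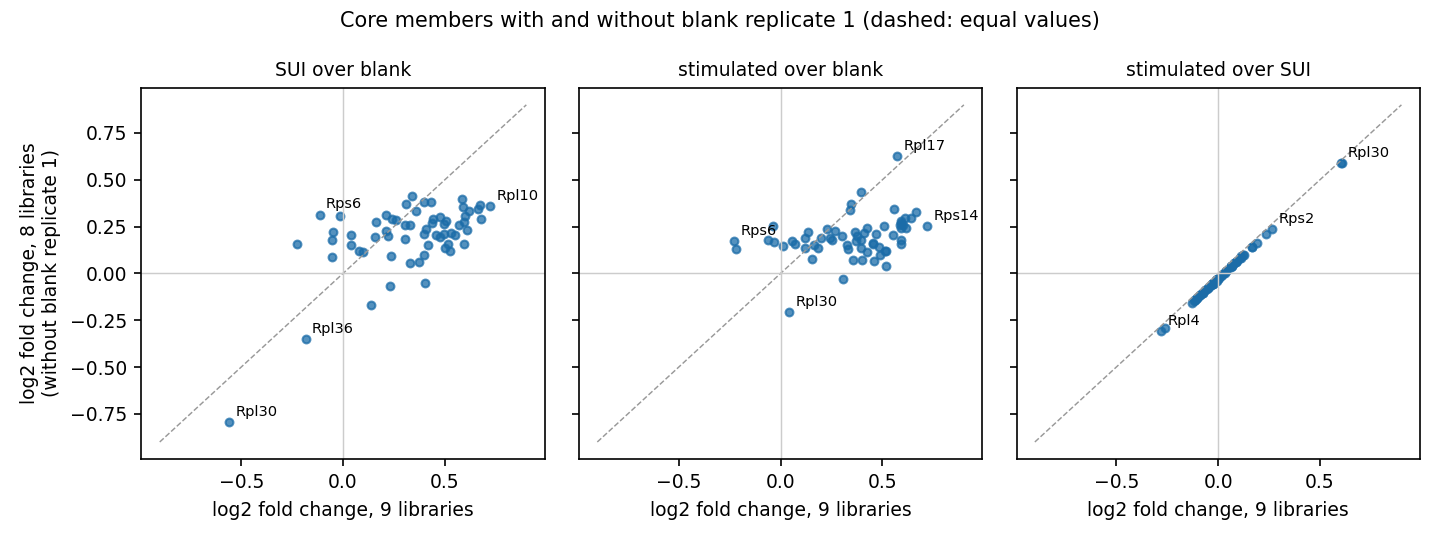
Log2 fold change of the 62 core genes with all 9 libraries (horizontal axis) and with the 8 libraries that remain without blank replicate 1 (vertical axis), one panel per comparison, with a dashed line of equal values. In both comparisons with blank the points lie mostly above 0 and below the line, with medians that fall from 0.40 to 0.22 and from 0.39 to 0.18.

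Genes known from disease or regulation were described by name whatever their values. Rps19, mutated in Diamond-Blackfan anaemia, had 34.7, 96.7 and 106 CPM in blank, 101, 126 and 121 in SUI and 119, 131 and 115 in stimulated libraries. Rpl11, which with Rpl5 and the 5S RNA can bind Mdm2, had 142, 115 and 117, then 115, 147 and 155, then 136, 145 and 129, so that its groups overlapped. Rpsa had 329, 366 and 379, then 343, 532 and 452, then 429, 447 and 405. All stimulated values of Rps19 and Rpsa were above all blank ones. Rps25 ran from 55.7 to 103 CPM in blank, 100 to 146 in SUI and 96.7 to 126 in stimulated libraries, with overlap in both comparisons. Rpl38, whose loss in mice alters the axial skeleton, ran from 14.7 to 36.1, 30.3 to 39.2 and 30.3 to 48.0. Rpl39, a protein of the exit tunnel, ran from 22.9 to 50.2, 46.3 to 55.7 and 51 to 64.5. Rpl36a had 40.2 to 43.2, 43.5 to 52.3 and 45.0 to 53.5, a small separation of both operated groups from all 3 blanks. Rpl22 (45.6 to 64.3 CPM over all libraries) and Rpl26 (182 to 286) had their highest value in blank replicate 1.

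In stimulated against SUI, which asks what the current added after the same operation, the core genes were on balance level. Of 62, 28 (45.2%) were above 0 against 52.6% of all genes, with a median of -0.01 against 0.02, and 0 members passed the edgeR test at an adjusted p of 0.05 (0.0123% of all genes did, 2 of 16256). At an unadjusted p under 0.05 there were also 0 core genes and 0 paralogues. That is a description only, as the share of all genes at this level is not given here. All stimulated libraries lay below all SUI libraries in 1 core gene, Rpl10 (log2 fold change -0.26 ± 0.37, edgeR adjusted p 0.92), against 9.28% of all genes, and above them in 1, Rpl37 (0.19 ± 0.30, adjusted p 0.94), against 9.52%. Rpl37 had 94.1, 104 and 105 CPM in SUI and 112, 128 and 105 in stimulated libraries, the last only just above. The core gene furthest down was Rpl4, whose protein lines the exit tunnel, with 467, 772 and 588 CPM in SUI and 523, 498 and 485 in stimulated libraries (-0.28 ± 0.22, adjusted p 0.82). SUI replicate 2 was the high value and the groups overlapped. Rps2 leaned the other way, with 296, 410 and 445 against 502, 410 and 472 CPM (0.27 ± 0.34, adjusted p 0.91). The highest fitted value, 0.61, belongs to Rpl36, whose row is at 0.0443 to 0.196 CPM. The split of signs is not stable: with the length trend removed 7 of 62 were above 0 and the median was -0.16 (all genes -0.09), with library totals in place of TMM factors 10 were above 0, and without SUI replicate 2 there were 54, with a median of 0.08.

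In stimulated against blank, the core genes again stood mostly higher in the operated animals. This comparison shares its blank libraries with the first, so the results are not independent. Of 62, 57 (91.9%) were above 0 against 54.3% of all genes, with a median of 0.39 against 0.04. In 39 (62.9%) every stimulated library was above every blank library, against 7.9% of all genes, and in 0 below, against 4.72%. edgeR called 0 members (1 of all genes, 0.00615%), and 1 core gene, Rpl10a, had an unadjusted p under 0.05, higher in stimulated libraries, against 1.96% of all genes. Without blank replicate 1, 60 of 62 were above 0 (50.2% of all genes), with a median of 0.18 (all genes 0.00), and in 50 (80.6%) all stimulated libraries were above both remaining blanks, against 12.0% of all genes. The exceptions in sign were Rpl30 and Rplp1. With the length trend removed the median was 0.20 (all genes -0.02) and 46 of 62 were above 0. With blank replicate 1 left out as well, they were 0.14 (all genes 0.00) and 56. The counts of separated genes above are without the length step. With that trend removed, the core mean deviation was 0.08, 0.06 and -0.06 in stimulated replicates 1 to 3. In blank it was -0.29, -0.14 and -0.07, so stimulated replicate 3 was barely above blank replicate 3. Adding to the core the 5 paralogue-named rows that lie at a parent's locus gave 62 of 67 above 0 here, 58 of 67 in SUI over blank and 29 of 67 in stimulated over SUI, with medians of 0.39, 0.40 and -0.01.

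The core genes with the smallest p in this comparison, after Rpl10a, were Rpl17, Rps9, Rps28 and Rps15a. Rpl17 had 99.7, 84.7 and 89.2 CPM in blank and 112, 190 and 105 in stimulated libraries (log2 fold change 0.57 ± 0.26). Rps9 had 46.6, 118 and 116 against 138, 161 and 145 (0.67 ± 0.31), and Rps28 12.9, 28.7 and 30.1 against 34.8, 41.3 and 32.3 (0.59 ± 0.29). Rps15a followed at 0.61 ± 0.31 with 47.3 to 108 CPM in blank and 120 to 145 in stimulated libraries. In each of the 4 the groups did not overlap and the edgeR adjusted p was 0.90. Rps14, whose loss in human 5q deletion impairs red cell formation, had the largest value (0.72 ± 0.49), with 106, 136 and 103 CPM in stimulated libraries against a blank range set by 18.7 in replicate 1. The lowest was Rps6 (-0.23 ± 0.29), with 329, 339 and 308 CPM between the blank values of 284 and 572, and without blank replicate 1 it was 0.17.

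The member with the smallest p in all 3 comparisons was Rpl30l2, a copy of the large subunit gene Rpl30 at chr10:36831500-36831990 on the minus strand (mRatBN7.2), a locus of 491 bases. Its CPM was 5.03, 5.84 and 7.64 in blank, 59.7, 41.0 and 40.7 in SUI and 37.3, 8.64 and 33.5 in stimulated libraries. The 3 SUI values lie far above all others but those of stimulated replicates 1 and 3, and stimulated replicate 2 sits just above the blanks. The log2 fold change was 2.93 ± 0.49 for SUI over blank (edgeR adjusted p 0.20), -0.83 ± 0.45 for stimulated over SUI (0.71) and 2.10 ± 0.47 for stimulated over blank (0.90). Without blank replicate 1 these were 2.82 ± 0.60, -0.87 ± 0.48 and 1.95 ± 0.57. Without stimulated replicate 2, edgeR called it in SUI over blank with an adjusted p of 0.026. DESeq2 gave adjusted p of 1.1e-06 for SUI over blank and 0.012 for stimulated over blank, where it was the only member called, and 0.60 for stimulated over SUI.

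Rpl30 itself, at chr7:65645991-65651363 on the minus strand, ran opposite. It had 45.1, 82.2 and 82.7 CPM in blank, 23.2, 58.5 and 61.0 in SUI and 59.4, 103 and 53.8 in stimulated libraries. Its log2 fold change was -0.56 ± 0.41 for SUI over blank (edgeR adjusted p 0.68) and 0.60 ± 0.41 for stimulated over SUI (0.77). The sum of both rows was much more even, at 50.1, 88.1 and 90.4 CPM in blank, 82.9, 99.5 and 102 in SUI and 96.7, 112 and 87.4 in stimulated libraries. The share of that sum on the copy was 10.0%, 6.63% and 8.45% in blank, 72.0%, 41.2% and 40.02% in SUI and 38.6%, 7.72% and 38.4% in stimulated libraries. The libraries thus fall at 6.63% to 10.0% or at 38.4% to 72.0% with none between, and stimulated replicate 2 is on the side of the blanks. When all rows of a symbol and its numbered copies were summed before the fit, Rpl30 had a log2 fold change of 0.31 ± 0.25 for SUI over blank and 0.37 ± 0.25 for stimulated over blank (edgeR adjusted p 0.71 and 0.90), and 0.10 ± 0.16 and 0.13 ± 0.16 without blank replicate 1. The highest sum was 2.23 times the lowest, whereas the copy alone spanned 11.9 times. The sequences of the copy and its parent were not compared here, and how the authors' estimation shared reads between the rows was not tested, so both values are uncertain.

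**Figure D4:**
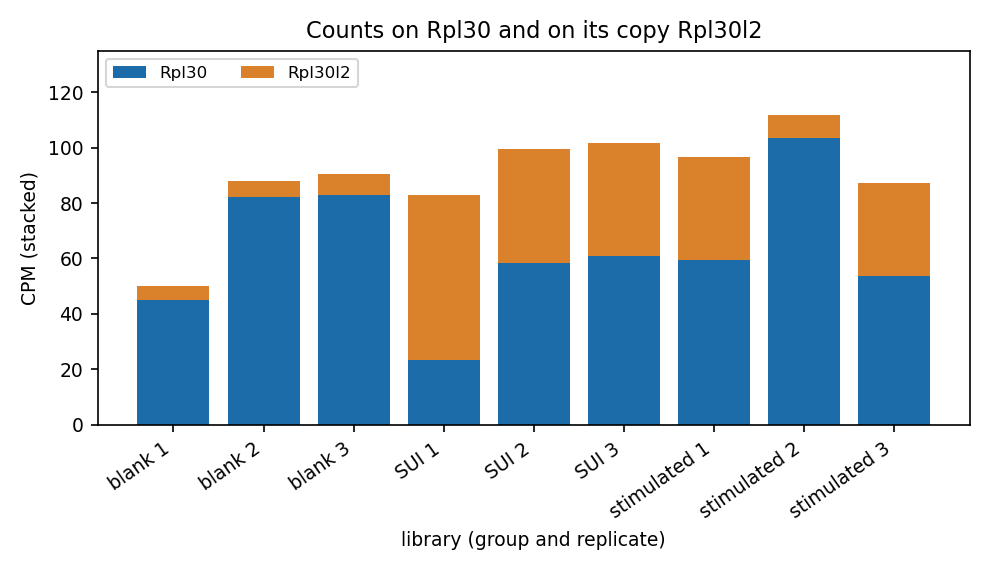
CPM on Rpl30 (blue) and on its copy Rpl30l2 (orange), stacked, by library. The stacked height runs from 50.1 to 112, and the orange part takes 38.4% to 72.0% of it in the SUI libraries and in stimulated replicates 1 and 3, and 6.63% to 10.0% in the blanks and stimulated replicate 2 (7.72%).

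Some other rows of a gene and its copies had 1 library apart from the rest. Rps10l1 had 6.39 CPM in stimulated replicate 3 and 19.6 to 25.0 in the other 8 libraries, while Rps10 was 79.0 there and 49.4 to 79.9 in the others, and the share on the copy was 7.49% there against 21.2% to 29.6%. A second row named Rpl35a, at chr6:129733943-129734345, had 9.28 CPM in SUI replicate 2 and 0.64 to 2.07 elsewhere, and Rpl19l1 had 2.15 in the same library and 0.053 to 0.371 elsewhere. Rpl23al1 had 15.9 CPM in blank replicate 1 and 3.20 to 4.72 elsewhere. For Rps18 and Rps18l1 the share on the copy held between 6.39% and 9.40% in all 9 libraries. For Rpl35a, the share on Rpl35al1 and Rpl35al7 together was 46.8% to 51% in blank, 40.5% to 44.5% in SUI and 45.5% to 46.2% in stimulated libraries, with all SUI libraries below both other groups. These cases were picked after their values were seen.

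Rps12l8, a copy of Rps12 on chromosome 17, was the paralogue next in rank for SUI over blank, with 10.5, 11.4 and 11.9 CPM in blank, 14.3, 22.0 and 15.3 in SUI and 14.5, 14.1 and 13.4 in stimulated libraries. The SUI and blank groups did not overlap (log2 fold change 0.61 ± 0.20, edgeR adjusted p 0.55), and for stimulated over SUI it was -0.30 ± 0.20 (0.77). Rpl8l1, at 0.344 to 0.519 CPM in blank and 0.607 to 1.07 in stimulated libraries, was among the 3 paralogues with the smallest p for stimulated over blank (0.90 ± 0.39, adjusted p 0.90). In all, 46 of 56 tested paralogues were above 0 in SUI over blank (median 0.41), 32 in stimulated over SUI (0.04) and 50 in stimulated over blank (0.47). Without blank replicate 1 these were 48 (median 0.24), 29 (0.01) and 51 (0.34). Paralogues that passed the filter only through one group had to differ, so these counts are a description.

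Rpl22l3 stands on a locus of 1939 bases at chr2:111754687-111756625 that lies among the RefSeq neighbours of Rpl22l1, the paralogue of the RNA-binding protein Rpl22. Its CPM was 3.02, 8.37 and 9.0 in blank, 14.4, 12.8 and 14.4 in SUI and 10.9, 13.3 and 11.5 in stimulated libraries. All operated libraries were above all blanks, including the comparison with blank replicates 2 and 3 alone. The log2 fold change was 1.02 ± 0.35 for SUI over blank (edgeR adjusted p 0.55) and 0.80 ± 0.35 for stimulated over blank (0.90), and 0.69 ± 0.16 and 0.44 ± 0.15 without blank replicate 1. Rpl22 did not separate, with 49.3 to 64.3, 45.6 to 57.9 and 54.8 to 58.4 CPM. The adjusted p of Rpl22l3 misses the threshold in each fit.

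Rpl3l, at chr10:13753886-13764457 (mRatBN7.2), was the ninth most abundant member per length at 238 FPKM, above its parent Rpl3 at 27.5 FPKM. Its FPKM was 140, 272 and 243 in blank, 138, 272 and 262 in SUI and 268, 267 and 281 in stimulated libraries. Blank replicate 1 and SUI replicate 1 were low, and the other 7 lay within 243 to 281. Rpl3, the general large subunit protein near the peptidyl transferase centre, had 8.43, 28.2 and 27.1 FPKM in blank, 37.9, 34.1 and 25.8 in SUI and 20.2, 40.3 and 25.4 in stimulated libraries. The ratio of Rpl3l to Rpl3 was 16.4, 9.61 and 8.94 in blank, 3.63, 7.94 and 10.1 in SUI and 13.3, 6.62 and 11 in stimulated libraries, so that Rpl3l exceeded Rpl3 in all 9. As means these were 11.7 ± 4.15 (SD, n = 3), 7.23 ± 3.30 and 10.3 ± 3.38. On the log2 scale SUI differed from blank by -0.76 (two-sided exact permutation p = 0.30), stimulated from SUI by 0.58 (p = 0.40, exact permutation) and stimulated from blank by -0.18 (p = 0.70, exact permutation), where 3 libraries against 3 cannot give a p below 0.10. The groups overlapped in every comparison, the first difference was -0.48 without blank replicate 1 and -0.32 without SUI replicate 1, and the last turned to 0.09 without blank replicate 1. Without SUI replicate 1 the second was 0.14.

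**Figure D5:**
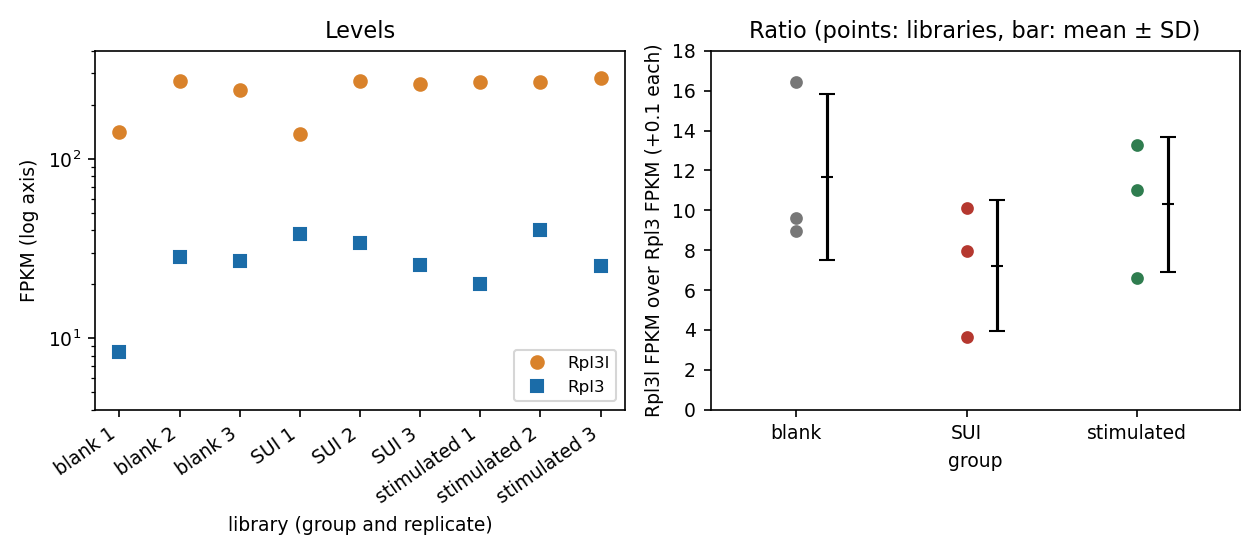
Left, FPKM of Rpl3l and Rpl3 in each library on a log axis, and right, their ratio by group with the mean ± SD of 3 libraries. Rpl3l is 3.63 to 16.4 times as high as Rpl3, the extremes being SUI replicate 1 and blank replicate 1, and the 3 groups overlap.

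Of the other distinct paralogues, Rps27l, a p53-inducible relative of Rps27, had 5.59, 17.3 and 16.0 CPM in blank, 15.1, 17.7 and 22.4 in SUI and 21.9, 25.5 and 19.9 in stimulated libraries. All stimulated values were above all blank ones, as they were for Rps27 (26.2, 65.8 and 72.4 against 80.4, 91.1 and 76.5 CPM). Per length, Rps27l was at 21.7 FPKM and Rps27 at 178. Rpl7l1 ran from 27.5 to 38.9 CPM over all libraries with overlapping groups. Rpl10l, a paralogue best known from testis, was at 0.298 FPKM, against 273 for Rpl10, with 0.244 to 1.69 CPM in no order by group.

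Genes that build the ribosome, and others around it, were read from lists whose members encode no core protein. In a list of 31 ribosome biogenesis genes, 21 were above 0 in SUI over blank (median 0.23) and 30 were below 0 in stimulated over SUI (median -0.36, against 0.02 for all genes and -0.01 for the core). Of the 31, 15 (48.4%) had every stimulated library below every SUI library, against the 9.28% given above for all genes, and 0 passed the edgeR test. The lowest p belonged to Rrp12, a pre-ribosome export factor, with 98.5, 60.0 and 54.6 CPM in SUI and 37.9, 27.3 and 37.6 in stimulated libraries (edgeR adjusted p 0.42). Ddx21, a nucleolar helicase, had 58.2, 51.3 and 43.8 against 37.1, 26.4 and 35.2, Bop1, a large subunit processing factor, 34.1, 25.4 and 24.9 against 17.6, 14.3 and 15.4, and Heatr1, a small subunit processome protein, 14.7, 11.2 and 10.1 against 6.37, 6.14 and 6.64. In these 4 the groups did not overlap. Against blank, 6 of the 31 were above 0 in stimulated libraries, with a median of -0.14. Over 23 alternative settings the median of the list in stimulated over SUI stayed between -0.52 and -0.28, with at least 27 of 31 genes below 0, the fewest being in the fits without SUI replicate 1.

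Mitochondrial ribosomal proteins are made in the cytosol for the separate ribosome of mitochondria. Of 70 tested, 52 were above 0 in SUI over blank (median 0.13), 47 in stimulated over SUI (0.06) and 53 in stimulated over blank (0.17). Mrpl45 had 26.1, 32.3 and 35.5 CPM in blank, 49.4, 50.6 and 49.4 in SUI and 39.6, 34.1 and 27.1 in stimulated libraries, with SUI apart from both groups, at an edgeR adjusted p of 0.50 and 0.51. Mrps7 had 21.0, 29.5 and 32.6, then 39.4, 43.3 and 47.1, then 37.5, 34.7 and 39.4. Of 14 other TOP mRNAs, 9 were above 0 in SUI over blank (median 0.14), 5 in stimulated over SUI (-0.08) and 9 in stimulated over blank (0.11). Eef1b2, an elongation factor subunit, had 36.1, 61.6 and 66.0 CPM in blank and 61.4, 78.7 and 78.8 in SUI, and Rack1, a protein of the small subunit's head, 83.3, 273 and 289 and 259, 379 and 341.

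Of 17 genes of the mTORC1 pathway, 10 were above 0 in SUI over blank (median 0.13), 5 in stimulated over SUI (-0.23) and 7 in stimulated over blank (-0.13), with 0 past the threshold. Tsc1, which restrains the pathway, had 20.6, 19.6 and 20.7 CPM in blank, 26.1, 26.2 and 25.0 in SUI and 20.3, 15.6 and 19.6 in stimulated libraries, with SUI above all others and an edgeR adjusted p of 0.51 for stimulated over SUI. Larp1 had 118, 52.8 and 66.5, then 80.5, 65.8 and 76.5, then 66.0, 36.7 and 52.1. Of 9 tested Rps6k kinase genes, 5 were above 0 in SUI over blank, and the one with the smallest p, Rps6kl1, was at 0.715 to 3.43 CPM over all libraries. Fau, which encodes a ribosomal protein fused to a ubiquitin-like protein and lies outside the rule on symbols, had 0.874 to 2.63 CPM on a locus of 506 bases.

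Marker genes for the tissue were present, with 8 muscle fibre markers summing to 133048 to 184313 CPM in blank, 97068 to 166422 in SUI and 137289 to 172861 in stimulated libraries, lowest in SUI replicate 1. Epcam, Krt5 and Krt8, markers of epithelium, summed to at most 0.932 CPM. The 6 leukocyte markers with a row summed to 88.5 to 141 CPM in blank, 60.1 to 67.3 in SUI and 48.5 to 245 in stimulated libraries. Every SUI sum was below every blank sum. The 2 erythroid markers with a row ran from 233 to 1151, 170 to 641 and 277 to 1822 CPM, and no marker listed had counts of 0 in every library. The 8 markers of fibro-adipogenic progenitors summed to 431.8 to 549.7 CPM in blank, 307.5 to 462 in SUI and 335 to 890.0 in stimulated libraries. The SUI and stimulated sums overlapped, and the highest was that of stimulated replicate 2. The highest leukocyte (245 CPM), endothelial (287 CPM) and epithelium (0.932 CPM) sums were also in that library, and those of the other marker sets were not. All 7 tested progenitor markers were above 0 in stimulated over SUI, against 52.6% of all genes. Their median log2 fold change was 1.49, against 0.02 for all genes. The part of cell mix in the results above was not tested.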

How the data were processed

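Counts and FPKM were deposited by the authors for 9 libraries with one batch label. Tools in the submitters' processing notes are Bowtie2, RSEM 1.3.1 and DESeq2 1.4.5, with the build mRatBN7.2. The authors deposited expected counts as whole numbers, and FPKM values scaled to transcript length and library size. No source used here gives the strand setting. Group and replicate come from the sample titles, and which of the 8 rats of a group gave each library is not stated. A p-value therefore reflects library spread, which may be technical. Depth ran from 50833480 to 147650284 counts, where 3 counts equal 0.021 to 0.0794 CPM (counting error only).

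edgeR 4.0.16 (R 4.3.3) was fitted on all 9 libraries and 16256 genes passing filterByExpr, with TMM factors and Benjamini-Hochberg adjustment over all genes. SE is the log2 fold change over the square root of F. Simulated 4-fold changes were called in 73.0% and 2-fold changes in 8.00% of genes (SUI over blank, 15886 genes). Ratios used FPKM plus 0.1. Repeated symbols were read from the row of highest mean count.

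The members, lists and rules for named genes were chosen with earlier results of these data known. Named were a fixed set of members, the 5 most abundant core genes, and per comparison the 5 core genes and 3 paralogues with the smallest p, the extremes, those opposite in sign to the core, and up to 3 genes per list. Promoters came from RefSeq (GRCr8), matched by symbol. Alternatives were DESeq2 1.42.0 and its size factors, library totals, other filters, voom with sample weights, the 6 libraries compared, a replicate block, log2 FPKM with pseudocounts of 1 and 0.1, a length trend, no mitochondrial rows, each library left out, and both first replicates of blank and SUI left out. Summed copies, the core with 5 more rows, and the length trend without blank replicate 1 were added after the data were seen. Values of a few single genes are not reported here.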

Additional observations from a re-analysis of the deposited data

How the results depend on the processing

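The core median kept its sign in SUI over blank and in stimulated over blank under all 23 settings run on single rows, from 0.22 to 0.64 and from 0.14 to 0.52, and changed sign in stimulated over SUI, from -0.17 to 0.08. The value of 0.14 (stimulated over blank, reported as 0.39) came with the length trend removed and blank replicate 1 left out. In SUI over blank the 0.22 came without blank replicate 1, where the median of all genes was 0.03. The 0.64 came with log2(FPKM + 0.1), where the median of all genes was itself 0.19, so these ranges include shifts of all genes. Library totals moved the median of all genes to 0.19, -0.11 and 0.09 in the 3 comparisons. DESeq2 called 1 member (Rpl30l2) in SUI over blank and 1 in stimulated over blank, and 186, 198 and 27 genes in all. voom with sample weights called 41 genes in stimulated over SUI. Against the 2 genes called in stimulated over SUI, library totals, the replicate block and summed copies without blank replicate 1 gave 1, and the 6 libraries alone, both FPKM settings, and the fit without blank replicate 1 and SUI replicate 1 gave 0. Against the 1 called in stimulated over blank, the 6 libraries alone, the replicate block, log2(FPKM + 1), the fit without both first replicates, summed copies and the length trend without blank replicate 1 gave 0. Leaving out 1 library at a time gave 0 to 1 called members in SUI over blank (Rpl30l2 without stimulated replicate 2, adjusted p 0.026) and 0 to 1, 0 to 3 and 0 to 1 genes in all. The difference in the Rpl3l to Rpl3 ratio, stimulated over blank, ran from -0.39 to 0.11 with 1 library left out. Rps6 in stimulated over blank ran from -0.40 to 0.17 with 1 library left out and turned to 0.083 with voom weights, 0.17 without blank replicate 1, 0.19 without both first replicates and 0.16 without blank replicate 1 and the length trend. The cause was not tested. The replicate numbers do not pair the libraries (correlations of same-numbered deviations from -0.22 to 0.11), and the replicate block left the core medians at 0.41, 0.00 and 0.42. Depth limits the lowest rows, such as the 24 paralogues at 0: 3 counts are 0.0794 CPM in blank replicate 1 and 0.021 to 0.0308 in the other libraries.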
